A study of Homo sapiens with 60 samples.

Results

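The libraries described here are the RNA-seq libraries of HepG2 cells given the high dose of a Bupleuri Radix extract (280 µg/mL, 3 libraries) and those given its medium dose (56 µg/mL, 3 libraries), 6 of the 60 libraries of the series. They were taken by the extract and dose in their labels, and all 6 carry the same title set, 13. HepG2 is an established human liver cancer cell line that keeps much of the secretory programme of hepatocytes. The extract was an ethanol extract of the root, given for 24 h, and the label of the vehicle libraries gives 0.1% DMSO. By the dosing rule in the series text, 280 µg/mL was the concentration at IC20 for this extract and the medium dose was 5-fold lower. The comparison therefore asks which genes differed between these 2 doses. For placing the step, 2 libraries of the low dose (11.2 µg/mL, title set 13) and 3 vehicle libraries (title set D1) were used as well. The third low-dose library was left out, because its counts depended on gene length with a slope of −1.02 log2 units per 10-fold of length, against −0.0427 to 0.0493 in the 6 libraries compared. Whether replicates came from separate cultures is not in the labels, and the spread between libraries on which the p-values rest may be technical only.

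Bupleuri Radix is a root used in East Asian medicine and is known for its triterpenoid saponins, the saikosaponins. Liver cells answer foreign and electrophilic compounds through sensors that each have a known set of target genes. The aryl hydrocarbon receptor (AhR) drives CYP1A1. NRF2, freed from KEAP1 by electrophiles, drives glutathione and thioredoxin genes. ATF4, translated when eIF2α is phosphorylated, drives amino acid and stress genes, and SREBP2, cut loose when membrane sterol is low, drives sterol synthesis genes. As in any bulk sample, fewer cells making an RNA and less RNA per cell cannot be told apart.

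The high-dose libraries held 22117977 to 27739850 counts and the medium-dose libraries 24617715 to 27481223. Mitochondrial rRNA took 2.96% to 3.27% of the counts at the high dose and 2.61% to 2.97% at the medium dose. Libraries of one dose differed from each other by a root mean square of 0.174 to 0.212 on the log2 scale, and libraries of different doses by 0.364 to 0.387. All 10 markers of the hepatocyte lineage were expressed, and their summed level was 38346 to 40417 counts per 1000000 (CPM) at the high dose against 43877 to 44531 at the medium dose. Among markers of other cell types, 2 of 7 fibroblast, 5 of 6 endothelial and 3 of 7 leukocyte genes passed the filter on low counts. The fibroblast sum was 7.88 to 10.0 CPM at the high dose against 7.18 to 8.48 CPM at the medium dose. The endothelial sum was 4.56 to 5.10 CPM at the high dose against 6.02 to 7.02 CPM at the medium dose. The leukocyte sum was 47.3 to 51.3 CPM at the high dose against 40.4 to 44.9 CPM at the medium dose. These 2 sums did not overlap between the doses, as was so for 48.5% of single tested genes. No counts were found in any of the 6 libraries for DCN and COL1A2 of fibroblasts, KDR of endothelium and PTPRC, CD3E and MS4A1 of leukocytes. The part of these marker sums in the results was not tested.

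At the high dose, genes of the NRF2 and ATF4 programmes, of sterol synthesis, of autophagy and of the immediate early response were higher than at the medium dose, together with IGFBP1 and CYP1A1. Genes of mitosis and DNA replication, metallothioneins, endoplasmic reticulum chaperones and many secreted liver proteins were lower. The differences were numerous and mostly small. Of 16661 genes tested, 6219 differed by edgeR's quasi-likelihood test at a Benjamini-Hochberg adjusted p under 0.05, which is 37.3% of them. Of these, 3197 were higher (19.2% of the genes tested) and 3022 lower (18.1%). Only 494 differed by 2-fold or more, 330 higher and 164 lower, while 5725 differed by less, and the median absolute log2 fold change of the called genes was 0.31. The 3 high-dose libraries lay wholly above or wholly below the 3 medium-dose libraries in 8086 genes (48.5%). They were above in 24.2% of all tested genes and below in 24.4%, which is the background for statements on overlap. The median log2 fold change of all tested genes was −0.0075, which is the background for the list medians.

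How small a difference could be called depended on the level of the gene. Below a mean of 1 CPM, 9.29% of 3543 genes were called, with a median standard error of 0.43 on the log2 scale. From 1 to 10 CPM it was 30% of 3675 genes, with a median standard error of 0.15. From 10 to 100 CPM, 49% of 7430 genes were called at 0.058, and above 100 CPM 56.8% of 2013 genes at 0.040. A gene below 1 CPM that was not called may thus still differ by more than a called gene above 100 CPM. Called genes of both directions were longer than the rest, with median lengths of 3749 bases for higher and 3552 for lower genes against 2757 for genes not called. Their median levels were higher as well, 32.4 and 33.5 CPM against 5.89 CPM. Protein-coding genes made up 92.3% and 92.0% of them against 70.8% of genes not called. The part of each of these was not tested.

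**Figure D1:**
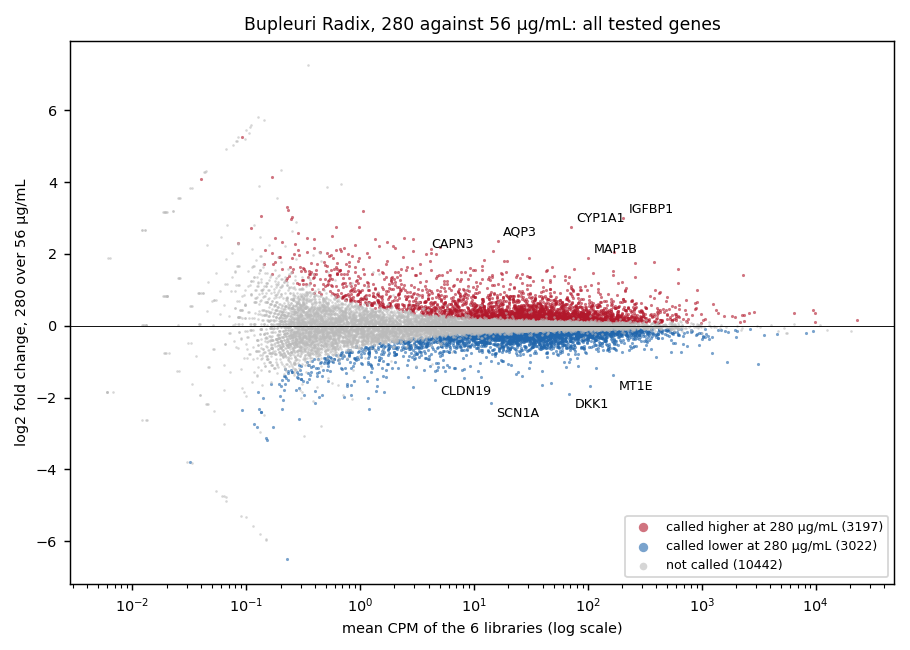
Log2 fold change of high over medium dose (y axis) against the mean level in CPM on a log axis (x axis), 1 point per tested gene, with 3197 genes called higher and 3022 called lower in colour. The labelled genes are among the largest changes, IGFBP1 for example at 3.00, and most called genes lie within a 2-fold difference.

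The largest rises and falls were taken among called genes whose doses did not overlap, so the separation of their libraries was fixed by that choice. Among well-expressed protein-coding genes the largest rise was that of IGFBP1 (chromosome 7, 45888357 to 45893668, GRCh38). IGFBP1 is a secreted binder of insulin-like growth factors that is known to be induced by fasting and by stress. It had 411, 344 and 326 CPM at the high dose and 48.9, 43.5 and 42.8 CPM at the medium dose. Each high-dose library was several-fold above each medium-dose library, a log2 fold change of 3.00 ± 0.14 (SE), or 8.01-fold (edgeR's quasi-likelihood test, adjusted p = 1.09e-19). CYP1A1, the cytochrome P450 that is the classical AhR target (chromosome 15, 74719542 to 74725610), had 122, 132 and 119 CPM at the high dose and 19.7, 18.5 and 17.1 CPM at the medium dose. Its change was 6.74-fold, with no overlap of the doses (log2 fold change 2.75 ± 0.12, edgeR adjusted p = 1.86e-20).

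Another 9 of the 12 largest rises changed between 3.70-fold (MAP1B) and 5.16-fold (AQP3). AQP3, a channel for water and glycerol, had 26.4, 30.5 and 24.4 CPM at the high dose and 5.18, 5.09 and 5.56 CPM at the medium dose. RASD1, a small GTPase known to be induced by glucocorticoids, had 22.8, 25.5 and 23.5 CPM at the high dose against 5.79, 5.63 and 5.64 CPM at the medium dose. Both genes were separated in every library, as the choice required. MAP1B, a microtubule-associated protein best known from neurons, had 173, 154 and 149.9 CPM at the high dose and 43.6, 43.4 and 41.8 CPM at the medium dose. DTNA, a dystrobrevin of the dystrophin complex, had 49.2, 47.3 and 46.1 CPM at the high dose against 13.8, 12.6 and 11.8 CPM at the medium dose. The spread within a dose was small beside the gap in both, and their log2 fold changes were 1.89 ± 0.056 and 1.90 ± 0.061. RBM24, an RNA-binding splicing regulator, CAPN3, a calpain protease best known from muscle, TCP11L2 and DUSP13, a dual-specificity phosphatase, were at 1 to 3 CPM at the medium dose and at 5 to 9 CPM at the high dose. Their log2 fold changes lay between 2.00 and 2.19. DUSP13 overlaps SAMD8 and TCP11L2 overlaps CKAP4, both on the opposite strand, and the sources used here do not say whether counting used the strand. FAM47E-STBD1 (2.03 ± 0.36) is a read-through transcript that shares exons with STBD1, so its level is uncertain.

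The largest falls were smaller than the largest rises. SCN1A, a voltage-gated sodium channel subunit (chromosome 2, 165984641 to 166149214), had 5.03, 4.95 and 5.53 CPM at the high dose and 21.3, 23.5 and 23.9 CPM at the medium dose, a 4.45-fold lower level (log2 fold change −2.15 ± 0.093, edgeR adjusted p = 4.48e-26). DKK1, a secreted inhibitor of WNT signalling, had 30.3, 28.4 and 28.0 CPM at the high dose and 102, 111 and 109 CPM at the medium dose. All high-dose libraries were far below all medium-dose libraries, and DKK1 was 3.72-fold lower (log2 fold change −1.89 ± 0.049, edgeR adjusted p = 6.26e-36). Metallothioneins made up 4 of the 12 largest falls and are described with their family. CLDN19, a tight junction claudin, had 1.61, 2.62 and 2.81 CPM at the high dose against 5.87, 6.75 and 7.5 CPM at the medium dose. MAP2K6, a kinase that activates p38, had 4.07, 4.41 and 4.81 CPM at the high dose against 11.3, 12.6 and 12.3 CPM at the medium dose. HEPACAM, a cell adhesion molecule of liver and glia, had 14.9, 14.9 and 14.2 CPM at the high dose against 37.2, 38.5 and 40.1 CPM at the medium dose. In each of these the doses did not overlap, as the choice required, and the log2 fold changes were −1.52, −1.45 and −1.39. HEPN1 (−1.44) overlaps HEPACAM on the opposite strand, so the pair may not be independent. KANK4 had 13.2, 12.6 and 13.7 CPM at the high dose and 34.8, 31.0 and 35.1 CPM at the medium dose, and SLC6A14, an amino acid transporter, had 14.8, 14.2 and 13.2 CPM at the high dose and 34.3, 35.4 and 33.2 CPM at the medium dose.

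Far fewer genes differed between the medium and the low dose. The same fit called 68 of 16661 genes (0.408%), 27 higher and 41 lower at the medium dose, and 1 of them by 2-fold or more. At an unadjusted p under 0.05 there were 1361 genes, against 7331 for the high and medium doses. That step has 2 low-dose libraries, and its count is not stable. It was 7 and 3 genes without low-dose replicate 1 and replicate 2, and 42, 28 and 32 when replicates 1, 2 and 3 of the medium dose were dropped in turn. The 1 gene past 2-fold was EDN1, endothelin 1, at 0.603, 0.614 and 0.198 CPM at the medium dose and 1.33 and 1.21 CPM at the low dose (edgeR adjusted p = 0.00697). SQSTM1, the autophagy receptor p62, had already a log2 fold change of 0.34 ± 0.043 at this lower step (edgeR adjusted p = 5.385e-06). AKR1B10, an aldo-keto reductase of the NRF2 programme, differed by 0.30 ± 0.048 and TXNRD1, thioredoxin reductase, by 0.20 ± 0.038 (edgeR adjusted p = 0.000412 and 0.00396). SCN1A (−0.35), HEPACAM (−0.35) and CLDN19 (−0.49) were lower at the medium than at the low dose (edgeR adjusted p = 0.022, 0.0047 and 0.0381). When each of the 5 libraries of this step was left out in turn, SQSTM1 kept its call in all 5 fits (edgeR adjusted p up to 0.0027). AKR1B10 lost it without low-dose replicate 2 (edgeR adjusted p = 0.0944). TXNRD1, HEPACAM, EDN1, SCN1A and CLDN19 lost it without either low-dose library (edgeR adjusted p from 0.0630 to 0.527), EDN1 also without medium-dose replicate 3, and SCN1A and CLDN19 also without medium-dose replicate 1 or 2.

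Levels across the doses differed in shape between genes. CYP1A1 had 12.6, 13.7 and 12.3 CPM in vehicle, 14.1 and 12.3 CPM at the low dose, 19.7, 18.5 and 17.1 CPM at the medium and 122, 132 and 119 CPM at the high dose. IGFBP1 had 38.3, 40.9 and 44.1 CPM in vehicle, 69.7 and 56.2 CPM at the low dose and 48.9, 43.5 and 42.8 CPM at the medium dose, and the medium and low doses were not called different (edgeR adjusted p = 0.229). DKK1 stood at 110.4, 109.9 and 108 CPM in vehicle and 112 and 113 CPM at the low dose, close to the medium-dose values. Vehicle libraries carry their own title set, so the set and the treatment cannot be told apart in a comparison with them, and their levels are given here as values only.

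**Figure D2:**
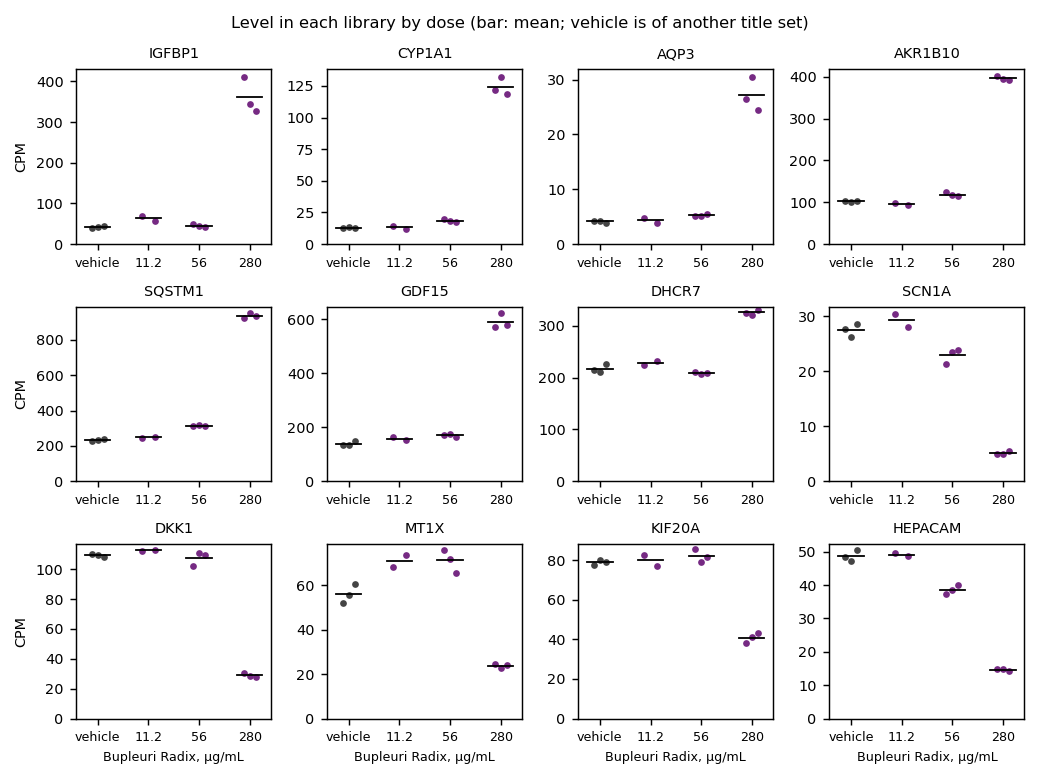
Level in CPM (y axis, from 0) of 12 genes in each library at vehicle, 11.2, 56 and 280 µg/mL (x axis), with 3, 2, 3 and 3 points and a bar at the mean. The 280 µg/mL points stand apart from the 56 µg/mL points in every panel, for example 326 to 411 against 42.8 to 48.9 CPM for IGFBP1. The genes were picked for large changes over all genes or within a list, which favours this. Of all tested genes 48.5% stood apart.

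Genes were then read by pathway, in 29 lists. The counts cover the members that passed the filter on low counts, and a rare member can pass it through one dose alone. They are descriptions, to be set beside the 19.2% and 18.1% of all genes called higher and lower. The share called in either direction rose with level, from 9.29% below 1 CPM to 49% from 10 to 100 CPM and 56.8% above 100 CPM. For lists of well-expressed genes the shares of all genes are thus too low a background.

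**Figure D3:**
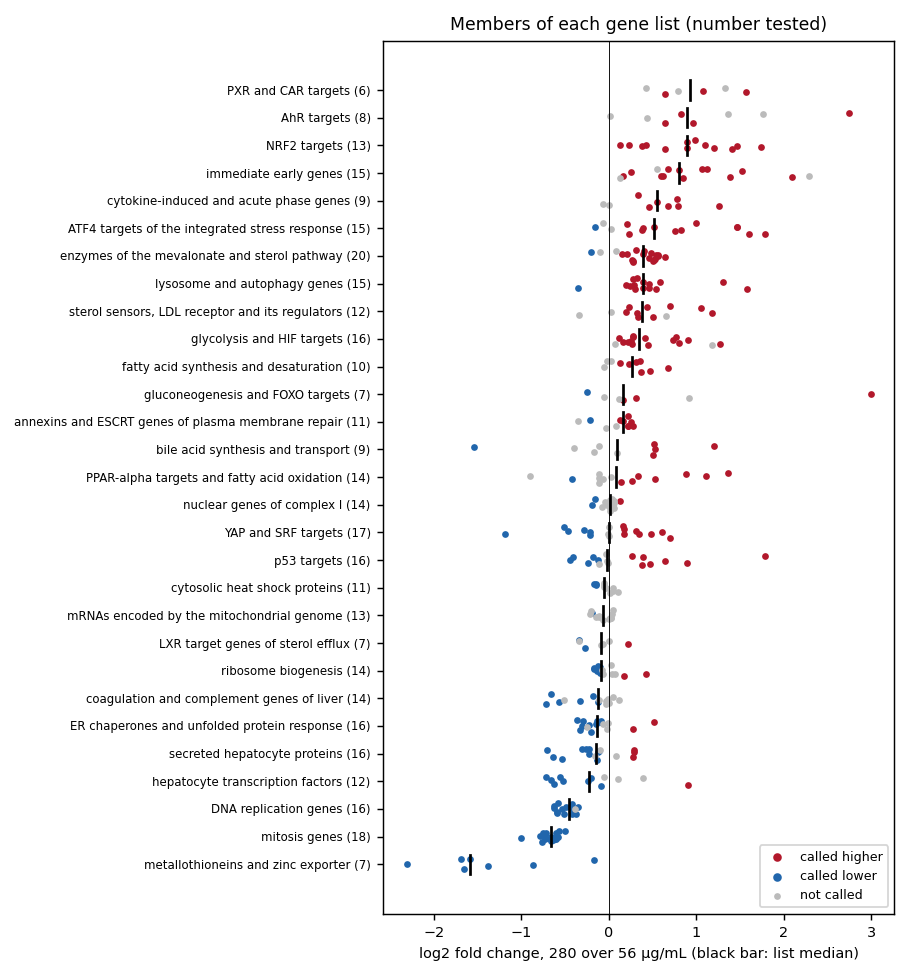
Log2 fold change of high over medium dose (x axis) for each tested member of the 29 lists (y axis, 1 row per list), with the median of each list marked and the median of all genes at −0.0075. Medians of 0.90 for NRF2 and AhR targets, −0.66 for mitosis and −1.59 for metallothioneins lie farthest out on either side, with 0.93 for PXR and CAR targets. All 13 NRF2 targets tested were called, but only 4 of 8 AhR targets and 3 of 6 PXR and CAR targets. The medians of these last 2 lists include rarely expressed genes and are less certain.

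Of the AhR targets, 4 of 8 tested rose and 0 fell, with a median log2 fold change of 0.90. CYP1A1, TIPARP and NQO1 were above 10 CPM, and the other members stayed under 2 CPM. ALDH3A1, an aldehyde dehydrogenase, had 1.07, 1.20 and 0.952 CPM at the high dose and 0.723, 0.505 and 0.437 CPM at the medium dose, and AHRR, the repressor of AhR, had 0.998, 1.27 and 0.771 CPM at the high dose against 0.683, 0.650 and 0.397 CPM at the medium dose. Both were called (log2 fold change 0.96 ± 0.27 and 0.83 ± 0.25, edgeR adjusted p = 0.00344 and 0.00592), but AHRR lost its call without high-dose replicate 2 or medium-dose replicate 3 (edgeR adjusted p = 0.108 and 0.0753). AHRR also overlaps PDCD6 on the same strand. TIPARP, another AhR target, had 24.3, 22.4 and 21.6 CPM at the high dose and 24.1, 22 and 21.9 CPM at the medium dose, a log2 fold change of 0.010 ± 0.063 (edgeR adjusted p = 0.927). CYP1A2 and UGT1A6 stayed under 0.5 CPM in all 6 libraries and were not called (edgeR adjusted p = 0.117 and 0.0852). The motif TTGCGTG, in either orientation, was in 0 of the 6 AhR target promoters at hand. It was in 1.16% of all 35116 promoters and 2.0% of those of tested genes. Promoters were read here and below from 250 bases before the start to a little after it, while printed sequences hold only the bases before it.

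Targets of PXR and CAR, the nuclear receptors for drugs, had 3 of 6 tested members higher and 0 lower. CYP3A5, a drug-metabolising P450, had 15.8, 15.2 and 14.6 CPM at the high dose and 4.98, 5.45 and 4.96 CPM at the medium dose, and the fetal CYP3A7 had 13.6, 13.6 and 12.9 CPM at the high dose against 6.43, 6.43 and 6.19 CPM at the medium dose. Their log2 fold changes were 1.56 ± 0.11 and 1.08 ± 0.098 (edgeR adjusted p = 5.12e-18 and 1.36e-13), but reads shared among CYP3A genes were divided by RSEM, and the values of single CYP3A genes are uncertain. ABCB1, the efflux pump P-glycoprotein, had 101, 99.3 and 98.0 CPM at the high dose against 65.1, 62.8 and 62.9 CPM at the medium dose (0.65 ± 0.040). CYP3A4 was between 0.18 and 0.46 CPM in the 6 libraries and CYP2B6 at or near 0, and neither was called (edgeR adjusted p = 0.174 and 0.451).

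All 13 NRF2 targets tested rose, with a median of 0.90 and the largest change in AKR1B10 (1.74). ME1 did not pass the filter. AKR1B10, which reduces reactive aldehydes, had 403, 396 and 392 CPM at the high dose and 123, 118 and 114 CPM at the medium dose (3.35-fold, log2 fold change 1.74 ± 0.042, edgeR adjusted p = 8.43e-37). SLC7A11, the cystine importer that feeds glutathione synthesis, had 163, 171 and 154 CPM at the high dose against 60.9, 58.7 and 56.5 CPM at the medium dose (1.47 ± 0.053). AKR1C1, another aldo-keto reductase with close paralogs, had 3358, 3305 and 3430.3 CPM at the high dose against 1309, 1233 and 1271 CPM at the medium dose (1.40 ± 0.042). The high-dose libraries were above the medium-dose libraries without overlap in these 3 genes, beside 24.2% of all tested genes, and large changes favour such separation.

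Among the glutathione and thioredoxin genes, GCLM, a subunit of glutamate-cysteine ligase, had 132, 126 and 127 CPM at the high dose and 59.5, 58.8 and 60.7 CPM at the medium dose. GCLC, its catalytic subunit, had 199.8, 198 and 183 CPM at the high dose and 105, 106 and 102 CPM at the medium dose. Their log2 fold changes were 1.10 ± 0.045 and 0.89 ± 0.037. SRXN1, sulfiredoxin, rose by 1.20 ± 0.033 and TXNRD1 by 0.99 ± 0.034. NQO1, a quinone reductase, was at 1078, 1042 and 1057 CPM at the high dose and 688, 674 and 673 CPM at the medium dose (0.64 ± 0.039). It is counted among the AhR targets above as well. HMOX1, heme oxygenase and a well known NRF2 target, rose far less, with 74.8, 74.3 and 71.8 CPM at the high dose and 63.3, 61.2 and 64.3 CPM at the medium dose (log2 fold change 0.23 ± 0.048, edgeR adjusted p = 8.85e-05). The ferritin chains FTL and FTH1 rose by 0.43 and 0.38. An antioxidant element, written TGACNNNGC and read on both strands, was present in 2 of the 8 NRF2 target promoters at hand, those of GCLM and TXNRD1, and in 13.3% of all promoters and 19.4% of those of tested genes. The GCLM promoter is shown as the clearest example, from RefSeq on GRCh38.p14, chr1:93909431-93909680 on the minus strand, with the element in capitals at 34 bases before the start.
GCLM: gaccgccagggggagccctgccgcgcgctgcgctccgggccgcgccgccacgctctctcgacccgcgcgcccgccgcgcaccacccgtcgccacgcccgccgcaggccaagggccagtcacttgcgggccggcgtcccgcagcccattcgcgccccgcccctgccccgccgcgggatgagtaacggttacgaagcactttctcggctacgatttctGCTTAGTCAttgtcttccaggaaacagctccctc

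Of the ATF4 targets, 12 of 15 rose, 1 fell and the median was 0.52. SLC7A11, given above with the NRF2 targets, is counted in this list too (1.47). GDF15, a secreted stress cytokine, had 570.2, 623 and 578 CPM at the high dose and 173, 177 and 165 CPM at the medium dose (3.44-fold, log2 fold change 1.78 ± 0.079, edgeR adjusted p = 1.9e-20). ATF3, a transcription factor downstream of ATF4, had 13.2, 13.7 and 15.0 CPM at the high dose against 4.66, 3.94 and 5.12 CPM at the medium dose (1.61 ± 0.093). TRIB3, a pseudokinase, had 263, 298 and 278 CPM at the high dose against 138, 139 and 144 CPM at the medium dose (1.00 ± 0.047). The high-dose libraries of these 3 genes lay wholly above the medium-dose libraries, beside 24.2% of all tested genes, and large changes favour such separation.

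ASNS, asparagine synthetase, had 60.6, 64.1 and 58.4 CPM at the high dose and 36.1, 32.6 and 34.4 CPM at the medium dose (0.83 ± 0.051), and VLDLR, a lipoprotein receptor, had 4.80, 5.14 and 4.81 CPM at the high dose against 1.57, 2.02 and 1.71 CPM at the medium dose (1.47 ± 0.17). ATF4 itself differed by 0.23 ± 0.033. DDIT3, which encodes CHOP, differed by only 0.21 ± 0.075 (edgeR adjusted p = 0.0237), overlaps MARS1 on the opposite strand, and lost its call without high-dose replicate 3 or medium-dose replicate 3 (edgeR adjusted p = 0.116 and 0.0976). Of the serine synthesis enzymes, PSAT1 fell by 0.16 on the log2 scale, while PHGDH was not called, with 104, 116 and 121 CPM at the high dose against 114, 119 and 123 CPM at the medium dose (edgeR adjusted p = 0.283). The composite element TGATGNAA, on either strand, was in 3 of the 14 ATF4 target promoters at hand, ATF3, ASNS and CHAC1, and in 3.62% of all promoters and 2.86% of those of tested genes. CHAC1 was at or near 0 CPM in all 6 libraries. The promoters of the other 2 are shown to compare where the element, in capitals, stands. Each of these genes has 2 starts among the promoters at hand, and the choice of the one shown favoured the start with more matches. In ASNS (chr7:97872409-97872658, minus strand) the element stands 68 bases before the start shown. In ATF3 (chr1:212565157-212565406, plus strand) it stands 191 bases before the start shown. Both are from RefSeq, GRCh38.p14.
ASNS: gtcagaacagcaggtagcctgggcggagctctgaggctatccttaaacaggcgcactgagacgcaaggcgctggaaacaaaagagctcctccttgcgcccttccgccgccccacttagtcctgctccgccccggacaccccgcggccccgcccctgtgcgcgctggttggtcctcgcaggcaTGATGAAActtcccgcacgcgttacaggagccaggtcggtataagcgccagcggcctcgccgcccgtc
ATF3: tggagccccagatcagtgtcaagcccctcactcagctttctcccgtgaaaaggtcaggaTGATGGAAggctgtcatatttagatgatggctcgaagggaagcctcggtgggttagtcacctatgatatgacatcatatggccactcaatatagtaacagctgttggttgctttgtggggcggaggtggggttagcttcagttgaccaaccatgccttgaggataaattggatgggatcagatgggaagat

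Endoplasmic reticulum chaperones, known targets of ATF6 and XBP1, were mostly lower. Of these 16 genes 2 rose and 10 fell (median −0.14). HSPA5, the chaperone BiP, had 1038, 977 and 1047 CPM at the high dose and 1274, 1221 and 1256 CPM at the medium dose (log2 fold change −0.29 ± 0.029, edgeR adjusted p = 1.87e-12), and CALR, calreticulin, had 1124, 1074 and 1119 CPM at the high dose against 1391, 1352 and 1359 CPM at the medium dose (−0.31 ± 0.033). PDIA4 and CRELD2 fell by 0.33 and 0.37 on the log2 scale. EDEM1, which directs misfolded proteins to degradation, was one of the 2 that rose, with 94.6, 85.8 and 88.9 CPM at the high dose against 62.5, 62.7 and 62.5 CPM at the medium dose (0.52 ± 0.040), and DNAJB9 was the other (0.27 ± 0.062). Of 11 heat shock genes 0 rose and 3 fell, all 3 by less than 0.2 on the log2 scale. These were HSPA8, HSP90AA1 and HSPA1B, whose reads are shared with HSPA1A. HSPA1B lost its call in 4 of the 6 fits that left out 1 library, the ones that dropped replicate 1 or 3 of the high dose, or replicate 1 or 3 of the medium dose (edgeR adjusted p = 0.148, 0.0720, 0.115 and 0.0711).

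Autophagy and lysosome genes rose as a group, with 14 of 15 higher and 1 lower (median 0.39). SQSTM1, which carries ubiquitinated cargo to autophagosomes and is also an NRF2 target, had 921, 952 and 935 CPM at the high dose and 311, 318 and 310.3 CPM at the medium dose. This was 2.99-fold higher (log2 fold change 1.58 ± 0.039, edgeR adjusted p = 1.08e-36), with the low dose at 244 and 251 CPM. SQSTM1 overlaps MGAT4B and MRNIP on the opposite strand. GABARAPL1, an ATG8 protein of the autophagosome membrane, had 19.3, 19.7 and 17.3 CPM at the high dose against 7.95, 7.29 and 7.58 CPM at the medium dose (1.3 ± 0.086), and MAP1LC3B, the source of LC3, had 146, 139 and 139 CPM at the high dose against 91.3, 95.7 and 95.7 CPM at the medium dose (0.59 ± 0.040). The cathepsins CTSB, CTSL and CTSD, proteases of the lysosome, rose by 0.46, 0.46 and 0.29. TFEB, the transcription factor of lysosome genes, was the one that fell, with 9.86, 10.4 and 11.0 CPM at the high dose and 13.3, 14.7 and 11.9 CPM at the medium dose (−0.35 ± 0.096, edgeR adjusted p = 0.00219).

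Sterol synthesis rose nearly throughout. Of 20 enzymes from acetyl-CoA to cholesterol 17 rose and 1 fell, and the median log2 fold change was 0.40. DHCR7, which makes cholesterol in the last step of one branch, had 324, 321 and 331 CPM at the high dose and 212, 208 and 208 CPM at the medium dose (0.64 ± 0.040, edgeR adjusted p = 1.64e-19). HMGCS1, HMG-CoA synthase, had 663, 628 and 658 CPM at the high dose against 442, 435 and 443 CPM at the medium dose (0.56 ± 0.041), and SC5D rose by 0.57 ± 0.045.

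Of 12 genes of sterol uptake, transport and sensing, 9 rose and 0 fell. LPIN1, a phosphatidate phosphatase, had 92.9, 89.5 and 93.7 CPM at the high dose against 40.0, 42.2 and 39.5 CPM at the medium dose (1.18 ± 0.042). NPC1, which exports cholesterol from lysosomes, had 182, 179 and 169 CPM at the high dose against 108, 109 and 110.0 CPM at the medium dose (0.70 ± 0.037). SREBF2, which encodes SREBP2, rose by 0.33 ± 0.043. INSIG1, the sterol sensor that holds SREBP back, was under 0.45 CPM in all 6 libraries and was not called (edgeR adjusted p = 0.277). LXR targets, induced when sterol is high, were mixed, with 1 of 7 higher and 2 lower. ABCA1, the cholesterol exporter, had 121, 118 and 111 CPM at the high dose and 145, 148 and 149.8 CPM at the medium dose (−0.34 ± 0.049), and PLTP fell by 0.27 on the log2 scale. SMPDL3A (0.22 ± 0.082) lost its call without high-dose replicate 1 or medium-dose replicate 2 or 3 (edgeR adjusted p = 0.197, 0.120 and 0.233). The sterol element TCACNCCAC, on either strand, was in 0 of 15 sterol synthesis promoters and 1 of 10 promoters of the second list, that of SREBF2, against 1.13% of all promoters and 1.45% of those of tested genes.

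Fatty acid synthesis had 7 of 10 genes higher and 0 lower (median 0.27). ACSS2, which makes acetyl-CoA from acetate, had 173, 165 and 176 CPM at the high dose and 111, 104 and 107 CPM at the medium dose, and ACLY, which makes it from citrate, had 736, 722 and 735 CPM at the high dose and 539.6, 518 and 527 CPM at the medium dose (0.68 ± 0.040 and 0.47 ± 0.031). FASN, fatty acid synthase, rose by 0.23 ± 0.070 and SCD by 0.31 ± 0.034. SREBF1, the source of SREBP1, had 75.9, 86.1 and 85.0 CPM at the high dose against 87.1, 83.5 and 86.7 CPM at the medium dose and was not called (edgeR adjusted p = 0.568). Among 14 genes of fatty acid oxidation and PPAR targets 7 rose and 1 fell. PLIN2, the coat of lipid droplets, had 389, 364 and 358 CPM at the high dose and 147, 142 and 141 CPM at the medium dose (2.58-fold, 1.37 ± 0.042, edgeR adjusted p = 2.59e-32). CPT1A, the gate of mitochondrial fatty acid import, had 96.1, 97.4 and 98.2 CPM at the high dose against 47.2, 45.1 and 42.8 CPM at the medium dose (1.11 ± 0.048). EHHADH, a peroxisomal oxidation enzyme, fell by 0.42 on the log2 scale, and ACADM and HADHB were not called (edgeR adjusted p = 0.0779 and 0.151).

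Proliferation genes were lower without exception in one list and with 1 exception in the other. All 18 mitotic genes fell, with a median of −0.66. The high dose lay below the medium dose without overlap in all 18, against 24.4% of all tested genes. KIF20A, a kinesin of the last step of cell division, had 38.2, 41.3 and 43.2 CPM at the high dose and 85.9, 78.9 and 81.7 CPM at the medium dose (2.01-fold lower, log2 fold change −1.01 ± 0.043, edgeR adjusted p = 2.96e-26), and it overlaps CDC23 and BRD8 on the opposite strand. KIF11, the spindle kinesin Eg5, had 57.8, 55.8 and 57.4 CPM at the high dose against 100.1, 99.0 and 96.5 CPM at the medium dose (−0.79 ± 0.046). CCNB2, a mitotic cyclin, had 42.8, 41.2 and 42.0 CPM at the high dose against 71.4, 69.7 and 73.4 CPM at the medium dose (−0.77 ± 0.046). TOP2A, which untangles chromosomes, had 417, 405 and 401 CPM at the high dose against 685, 667 and 663 CPM at the medium dose (−0.72 ± 0.036). The smallest fall was that of BUB1B (−0.50).

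Of 16 DNA replication genes 15 fell (median −0.46). MCM5 of the replicative helicase had 93.6, 100.3 and 96.0 CPM at the high dose and 152, 149 and 147 CPM at the medium dose. Its partner MCM2 had 129, 136 and 135 CPM at the high dose and 202, 209 and 205 CPM at the medium dose, and MCM4 had 202, 197 and 202 CPM at the high dose and 302, 303 and 301 CPM at the medium dose. The high dose lay below the medium dose without overlap in all 3, beside 24.4% of all tested genes, and large changes favour such separation. The log2 fold changes of the 3 genes were −0.63 ± 0.042, −0.62 ± 0.037 and −0.59 ± 0.029. CCNE2, the remaining gene, was at 4.76, 3.42 and 3.22 CPM at the high dose and 4.54, 4.48 and 5.95 CPM at the medium dose (edgeR adjusted p = 0.0684). At the doses beneath, TOP2A had 705, 696 and 679.6 CPM in vehicle and 661 and 660.1 CPM at the low dose. The CCAAT box, on either strand, was in 13 of 15 mitosis promoters and 9 of 13 replication promoters, against 34.6% of all promoters and 42.8% of those of tested genes. KIF20A, the mitotic gene that fell most, is shown with both of its matches in capitals, 94 and 67 bases before the start (RefSeq, GRCh38.p14, chr5:138178862-138179111, plus strand).
KIF20A: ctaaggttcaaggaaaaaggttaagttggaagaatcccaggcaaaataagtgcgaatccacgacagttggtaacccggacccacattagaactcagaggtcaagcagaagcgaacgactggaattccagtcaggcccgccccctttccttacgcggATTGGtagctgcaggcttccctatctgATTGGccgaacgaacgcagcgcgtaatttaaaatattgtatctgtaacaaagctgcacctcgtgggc

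Targets of p53 did not move one way. Of 16, 7 rose and 5 fell, with a median of −0.018. CDKN1A, the cell cycle inhibitor p21, had 104, 115 and 112 CPM at the high dose and 76.4, 79.7 and 84.0 CPM at the medium dose (0.47 ± 0.040, edgeR adjusted p = 1.33e-14). PLK3, a stress kinase, rose by 0.90 ± 0.076, and TP53INP1 by 0.65 ± 0.058. MDM2, which targets p53 for degradation, had 312, 306 and 295 CPM at the high dose against 306, 313 and 311 CPM at the medium dose and was not called (edgeR adjusted p = 0.692). SESN1 and FDXR fell by 0.45 and 0.41 on the log2 scale. GDF15, which belongs to this list as well as to the ATF4 list, was its largest rise (1.78).

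Immediate early genes, which growth factors and stress switch on within minutes, had 12 of 15 higher and 0 lower (median 0.80). KLF6, a zinc finger factor, had 257, 249 and 235 CPM at the high dose and 83.3, 86.5 and 88.4 CPM at the medium dose (1.52 ± 0.039, edgeR adjusted p = 6.26e-36). JUN, a subunit of AP-1, had 84.8, 92.0 and 94.2 CPM at the high dose against 34.2, 36.1 and 33.5 CPM at the medium dose (1.38 ± 0.058), and EGR1 had 20.3, 20.7 and 19.0 CPM at the high dose against 12.3, 13.0 and 12.1 CPM at the medium dose (0.68 ± 0.084). Among the called members KLF4 had the largest change, a log2 fold change of 2.10 ± 0.34, at levels of 1.07, 0.947 and 0.997 CPM at the high dose and 0.161, 0.253 and 0.278 CPM at the medium dose. FOS and FOSB stayed under 1.1 CPM and were not called (edgeR adjusted p = 0.0913 and 0.824). Of 9 cytokine and acute phase genes 7 rose and 0 fell. Among those that rose was IL6R, the interleukin 6 receptor, with 88.1, 90.3 and 90.2 CPM at the high dose and 38.4, 36.7 and 36.8 CPM at the medium dose (1.26 ± 0.042). CXCL8 rose by 0.78 ± 0.19, while NFKBIA and TNFAIP3, direct NF-kB targets, were not called (edgeR adjusted p = 0.952 and 0.36). SOCS3, under 1 CPM, was called at an edgeR adjusted p of 0.0315 but not without high-dose replicate 2 or 3 or any 1 of the medium-dose replicates (edgeR adjusted p from 0.0546 to 0.0957).

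Among 17 targets of YAP and SRF and cytoskeleton genes, 8 rose and 6 fell. CCN2, a matricellular protein and YAP target, had 72.3, 71.9 and 69.4 CPM at the high dose and 157, 169.9 and 161 CPM at the medium dose (−1.19 ± 0.041, edgeR adjusted p = 2.48e-30). ANKRD1 and CCN1, which are YAP targets as well, rose by 0.61 ± 0.053 and 0.31 ± 0.074. KRT19, a keratin of bile duct cells, had 251, 278 and 263 CPM at the high dose against 160.4, 165 and 163 CPM at the medium dose (0.70 ± 0.060). In a list of membrane repair genes 7 of 11 rose and 1 fell, and each called member changed by less than 0.3 on the log2 scale. ANXA2, CAPN1 and the ESCRT-III subunit CHMP3 rose by 0.28, 0.26 and 0.22.

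Metallothioneins, small proteins that bind zinc and copper and are induced through MTF1, fell as a family. All 7 tested genes, which include the zinc exporter SLC30A1, were lower (median −1.59). MT1G had 50.4, 48.8 and 47.5 CPM at the high dose and 168, 158 and 148 CPM at the medium dose (−1.69 ± 0.10, edgeR adjusted p = 6e-16). MT1X had 24.4, 22.7 and 23.9 CPM at the high dose against 76.0, 72.0 and 65.7 CPM at the medium dose (−1.59 ± 0.075), and MT1F had 19.0, 18.5 and 19.0 CPM at the high dose against 60.5, 60.2 and 58.0 CPM at the medium dose (−1.66 ± 0.077). MT1E (−1.38 ± 0.096), MT2A (−0.87 ± 0.097) and the rare MT1M (−2.32 ± 0.28) fell as well, SLC30A1 by only 0.17 on the log2 scale. The high-dose libraries lay below the medium-dose libraries in every one, against 24.4% of all tested genes. These paralogs share reads that RSEM divides, so single values are uncertain. In vehicle MT1G had 88.5, 88.2 and 115 CPM. The core of the metal response element, TGCNCNC on either strand, was in each of the 3 promoters at hand (MT1X, MT2A and SLC30A1). It is short, was chosen after the counts were seen, and was in 55.9% of all promoters and 69.6% of those of tested genes. MT1X is shown because it holds 4 matches, in capitals, from 150 to 53 bases before the start (RefSeq, GRCh38.p14, chr16:56682220-56682469, plus strand).
MT1X: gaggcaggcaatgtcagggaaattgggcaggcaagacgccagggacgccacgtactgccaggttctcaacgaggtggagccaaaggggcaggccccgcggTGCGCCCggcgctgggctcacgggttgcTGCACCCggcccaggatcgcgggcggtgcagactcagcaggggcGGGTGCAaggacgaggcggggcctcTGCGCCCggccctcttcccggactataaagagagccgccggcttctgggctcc

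Hepatocyte products were mostly a little lower. Of 16 secreted proteins 3 rose and 10 fell (median −0.15). ALB, albumin, had 9275, 8442 and 9332 CPM at the high dose and 9995, 9909.8 and 9882 CPM at the medium dose (−0.14 ± 0.035, edgeR adjusted p = 0.00105). HP, haptoglobin, fell more, with 110.2, 109 and 127 CPM at the high dose against 192, 186 and 188 CPM at the medium dose (−0.71 ± 0.048). AMBP, APOA2 and AHSG rose by 0.29, 0.29 and 0.27. Of 14 coagulation and complement genes 6 fell and 0 rose. The median of this list was −0.12 here and also −0.12 for the medium over the low dose, where 2 members were called. For the secreted proteins the median of that lower step was −0.097, with 1 member called. The lower step rests on 2 low-dose libraries. FGA, a chain of fibrinogen, had 539, 458 and 505 CPM at the high dose and 833, 834 and 811 CPM at the medium dose, and FGG, another chain, had 631, 556 and 599 CPM at the high dose and 873, 898 and 871 CPM at the medium dose (−0.72 ± 0.042 and −0.57 ± 0.048). C5 of complement fell by 0.66 on the log2 scale.

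Of 12 transcription factors that define hepatocytes 8 fell and 1 rose (median −0.23). NR1H4, the bile acid receptor FXR, had 43.3, 40.7 and 45.8 CPM at the high dose and 70.8, 71.6 and 70.1 CPM at the medium dose (−0.71 ± 0.057, edgeR adjusted p = 1.25e-15). NR0B2, the repressor SHP and a known FXR target, moved the other way, with 85.8, 92.5 and 92.3 CPM at the high dose against 45.7, 50.2 and 48.5 CPM at the medium dose (0.90 ± 0.062), and it overlaps NUDC on the opposite strand. ONECUT1 and FOXA1 fell by 0.67 and 0.63, and HNF4A by 0.092, on the log2 scale. Among 9 bile acid genes 4 rose and 1 fell. ABCC2, the canalicular exporter of conjugates, had 852, 864 and 861 CPM at the high dose and 382, 366 and 372 CPM at the medium dose (2.30-fold, 1.20 ± 0.040, edgeR adjusted p = 8.12e-31). SLC51A and ABCC3, basolateral exporters, rose by 0.53 ± 0.12 and 0.52 ± 0.045. CYP7A1, the rate-limiting enzyme of bile acid synthesis, was under 0.6 CPM in all 6 libraries and was called lower (−1.55 ± 0.53, edgeR adjusted p = 0.016), which no longer held when high-dose replicate 1 or medium-dose replicate 2 was left out (edgeR adjusted p = 0.0986 and 0.0567).

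Glycolysis genes and targets of the hypoxia factor HIF had 14 of 16 members higher and 0 lower (median 0.35). NDRG1, a hypoxia and stress gene, had 75.3, 61.9 and 60.4 CPM at the high dose and 29.6, 27.5 and 24.7 CPM at the medium dose (1.27 ± 0.12, edgeR adjusted p = 2.04e-11). PFKFB4 and PFKFB3, which set the level of fructose 2,6-bisphosphate, rose by 0.90 ± 0.15 and 0.80 ± 0.16. PFKFB4 had 12.1, 10.1 and 9.29 CPM at the medium dose against 19.6 and 15.6 CPM at the low dose (edgeR adjusted p = 0.0291), a call that was lost in 4 of the 5 fits that left out 1 library, all but the one without medium-dose replicate 1 (edgeR adjusted p from 0.0825 to 0.588). Among glycolytic enzymes ALDOA differed by 0.44 ± 0.040 and GAPDH by 0.12 ± 0.036. Of 7 genes of gluconeogenesis and FOXO targets 3 rose, IGFBP1, INSR (0.31) and PCK2 (0.16). PPARGC1A fell by 0.25 on the log2 scale, and PCK1 and G6PC1 were not called (edgeR adjusted p = 0.557 and 0.879).

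The mitochondrial lists had few called genes. Of 13 mitochondrially encoded mRNAs 1 was called, MT-CO3, at 7764, 7971 and 7105 CPM at the high dose and 8408, 8190.5 and 9460.5 CPM at the medium dose (−0.19 ± 0.072, edgeR adjusted p = 0.0358). That call was lost without high-dose replicate 3 or medium-dose replicate 3 (edgeR adjusted p = 0.185 and 0.241), 3 of these mRNAs were called lower without medium-dose replicate 1, and 0 to 6 across the alternatives. Of 14 nuclear genes of complex I 1 rose, NDUFV2, and 2 fell, NDUFS3 and NDUFB10, each by under 0.2 on the log2 scale. NDUFB10 lost its call without high-dose or medium-dose replicate 2 (edgeR adjusted p = 0.0798 and 0.0813). NDUFV2 lost it when replicate 1 or 3 of the high dose or replicate 2 or 3 of the medium dose was dropped (edgeR adjusted p from 0.0702 to 0.214). Of 14 ribosome biogenesis genes 2 rose and 7 fell, but only 3 and 4 fell without high-dose or medium-dose replicate 2. MYC, a driver of growth, was one of those that rose, with 237, 245 and 245 CPM at the high dose and 185, 179.8 and 176 CPM at the medium dose (0.43 ± 0.045, edgeR adjusted p = 1.37e-11), while the nucleolar proteins NOP56 and NCL each fell by 0.17 on the log2 scale.

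The step was set beside the same 5-fold step of 2 of the other extracts, 1 that shares its title set and 1 that shares its doses. Aconiti Lateralis Radix Preparata, named Aconiti here (ethanol extract, 500 over 100 µg/mL, 3 libraries each) shares title set 13 with Bupleuri, and Coptidis Rhizoma, named Coptidis here (ethanol extract, 280 over 56 µg/mL, 2 libraries each) shares the doses but belongs to title set 11. The Coptidis libraries are marked batch D in their titles and batch C in their descriptions, so which batch they belong to is uncertain. Doses of extracts differ in what they deliver, so the steps are set side by side with the test of their difference. A step is a change within an extract and not a level, and the other medium doses could already differ from the Bupleuri medium dose. Levels set across title sets are given as values only. The Bupleuri step differed from the Aconiti step in 5719 genes (34.3%), 3005 of them higher (18%) and 2714 lower (16.3%) in Bupleuri. It differed from the Coptidis step in 6499 genes (39%), 3525 higher (21.2%) and 2974 lower (17.9%). Alone, the Aconiti step had 4683 called genes (28.1%) and the Coptidis step 8898 (53.4%). Mitochondrial rRNA was 5.41% and 5.68% of the counts at the high and 10.2% and 11.5% at the medium Coptidis dose. Its part in the Coptidis step was not tested. The slope on gene length was 0.520 and 0.343 log2 units per 10-fold of length at the high Coptidis dose. It was 0.325 and 0.171 at the medium Coptidis dose, and all lay outside the range of the Bupleuri libraries compared. With GC and length offsets 6954 genes differed from the Coptidis step. The part of length in the Coptidis list medians was not tested.

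Of 23 genes of the largest rises and falls in the Bupleuri step, 7 were called the same way in the Aconiti step, 9 the opposite way and 7 not at all. In the Coptidis step, 19 were called the same way, 0 the opposite way and 4 not at all. The genes were picked for the size of their Bupleuri step, which favours a difference from another step, so these counts are descriptions. IGFBP1 had a log2 fold change of 3.00 in Bupleuri, −0.11 ± 0.13 in Aconiti and 2.00 ± 0.15 in Coptidis. The Bupleuri step was larger than either, by 3.11 ± 0.19 and 1.00 ± 0.20 (edgeR adjusted p of the differences 4.14e-16 and 7.04e-05). Its level was far higher under Coptidis, 6049 ± 504 CPM at the high and 1514 ± 55.9 CPM at the medium dose (SD, n = 2 each), and under Aconiti it was 109 ± 5.49 CPM at the high and 117 ± 17.3 CPM at the medium dose (SD, n = 3 each). CYP1A1 rose in all 3 steps, by 2.75, 1.96 ± 0.12 and 1.95 ± 0.11, and the Bupleuri step exceeded that of Aconiti by 0.79 ± 0.17 and that of Coptidis by 0.80 ± 0.16 (edgeR adjusted p = 0.000279 and 0.000138). The level of CYP1A1 was 4689.6 ± 70.6 CPM at the high and 1211 ± 50.1 CPM at the medium Coptidis dose (SD, n = 2 each), above the Bupleuri high dose in both.

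DKK1 fell in Bupleuri by 1.89 on the log2 scale, with −0.46 ± 0.044 in Aconiti and −0.043 ± 0.065 in Coptidis, and the difference from Coptidis was −1.85 ± 0.082 (edgeR adjusted p = 3.7e-25). DKK1 was low at both Coptidis doses, 38.0 ± 1.60 CPM at the high and 39.2 ± 0.417 CPM at the medium dose (SD, n = 2 each), where it averaged 28.9 CPM at the Bupleuri high dose. SCN1A fell in Bupleuri and in Coptidis (−2.20 ± 0.20) but rose in Aconiti (0.35 ± 0.074), and its Bupleuri step differed from Coptidis by 0.050 ± 0.23 (edgeR adjusted p = 0.895). AQP3 rose more in Coptidis (3.29 ± 0.075) than in Bupleuri (difference −0.92 ± 0.13, edgeR adjusted p = 1.88e-07), with 1340.4 ± 12.3 CPM at the high and 137 ± 0.609 CPM at the medium Coptidis dose (SD, n = 2 each).

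**Figure D4:**
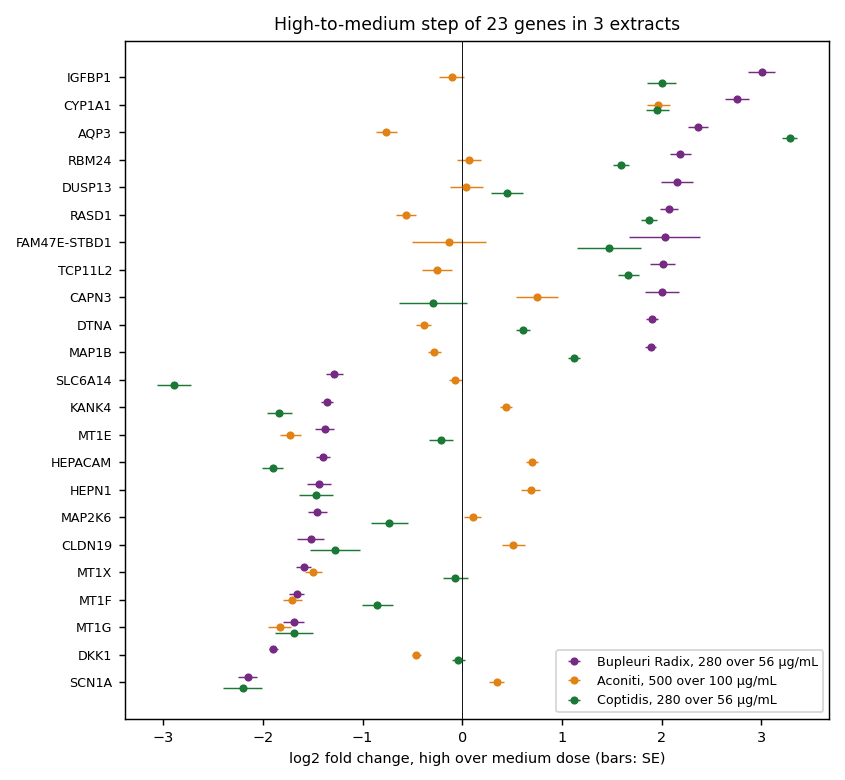
Log2 fold change of the high over the medium dose (x axis) for 23 genes of the largest rises and falls (y axis) in Bupleuri, Aconiti and Coptidis, with bars of ±1 SE. IGFBP1 lies at 3.00 in Bupleuri, −0.11 in Aconiti and 2.00 in Coptidis, while MT1X lies at −1.59, −1.49 and −0.070.

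By list, sterol synthesis differed in direction between the steps. The counts stand beside 12.6% of all genes called higher and 15.5% lower in the Aconiti step, and 27% higher and 26.4% lower in the Coptidis step. Its median was 0.40 with 17 genes higher in Bupleuri, −0.14 with 16 lower in Aconiti and −0.92 with 19 lower in Coptidis. The difference was called in 17 of 20 genes against Aconiti and in 19 of 20 against Coptidis. For DHCR7 the 3 steps were 0.64, −0.24 ± 0.040 and −1.12 ± 0.056. Fatty acid synthesis had medians of 0.27 in Bupleuri, −0.29 in Aconiti and −0.59 in Coptidis.

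ATF4 targets had medians of 0.52 in Bupleuri, −0.16 in Aconiti and 0.57 in Coptidis. Immediate early genes had 0.80, −0.51 and 1.90, with 12 of 15 higher in Bupleuri, 12 lower in Aconiti and 15 higher in Coptidis. NRF2 targets were mostly higher in all 3 steps (13, 11 and 11 of 13, medians 0.90, 0.36 and 1.00), with 2 called lower in Aconiti and 1 in Coptidis. SLC7A11 was among those lower in Aconiti (−0.27 ± 0.053). SQSTM1 of the autophagy list had 1.58, 0.015 ± 0.038 and 0.74 ± 0.046, and the Bupleuri step exceeded that of Aconiti by 1.56 ± 0.054 and that of Coptidis by 0.84 ± 0.060 (edgeR adjusted p = 7.58e-30 and 3.28e-17). Mitosis genes had medians of −0.66, −0.35 and −1.13. Targets of p53 had −0.018, 0.51 and 0.87, with 12 of 16 higher in Aconiti and 14 in Coptidis. For MDM2 the steps were −0.026 ± 0.043 in Bupleuri, 0.66 ± 0.042 in Aconiti and 0.79 ± 0.052 in Coptidis, and both differences were called (edgeR adjusted p = 4.38e-14 and 7.95e-15).

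Metallothioneins had medians of −1.59 in Bupleuri and −1.71 in Aconiti, with 7 of 7 lower in the Aconiti step too, and −0.070 in Coptidis. MT1X was at −1.59, −1.49 ± 0.083 and −0.070 ± 0.13. Its Bupleuri step differed from that of Aconiti by −0.098 ± 0.11 (edgeR adjusted p = 0.555) and from that of Coptidis by −1.52 ± 0.15 (edgeR adjusted p = 1.39e-11). MT1X was low at both Coptidis doses, 14.2 ± 2.00 CPM at the high and 14.9 ± 2.99 CPM at the medium dose (SD, n = 2 each), below its level at the Bupleuri high dose. MT1G had 10.7 ± 1.5 CPM at the high and 34.4 ± 7.43 CPM at the medium Coptidis dose, and MT1F 5.72 ± 1.42 CPM at the high and 10.3 ± 0.648 CPM at the medium dose (SD, n = 2 each). MT2A rose in Coptidis (0.97 ± 0.12) and fell in Bupleuri and Aconiti (−0.87 and −1.44).

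**Figure D5:**
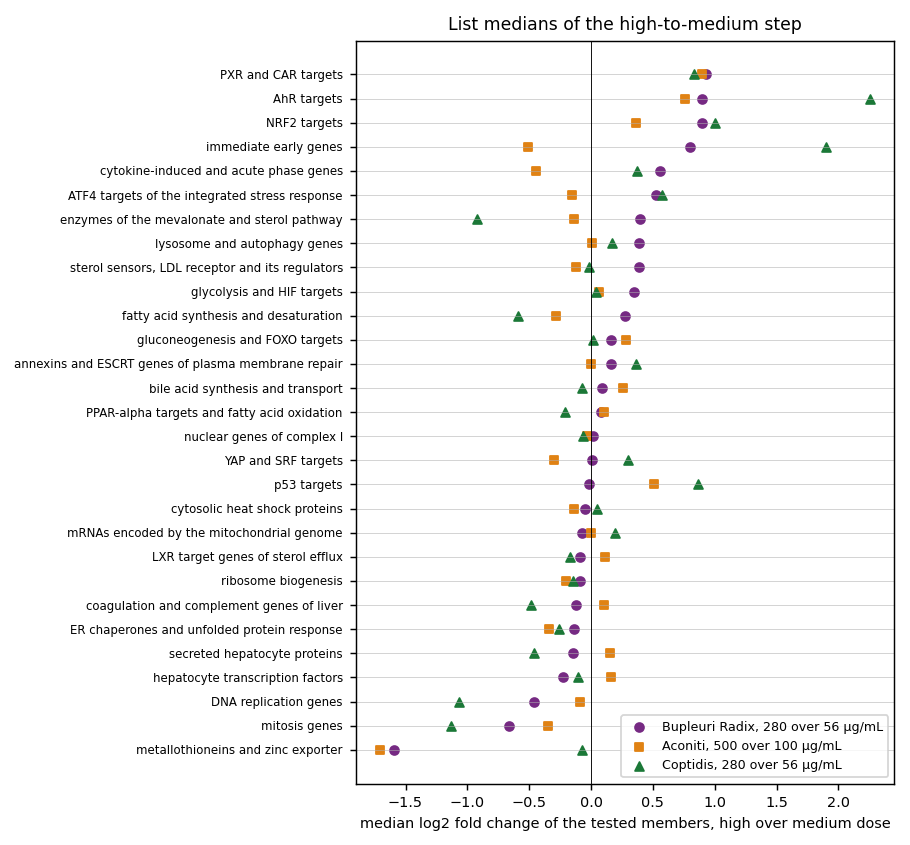
Median log2 fold change of the high over the medium dose (x axis) for the 29 lists (y axis) in Bupleuri, Aconiti and Coptidis, 1 marker per extract. Sterol synthesis lies at 0.40 in Bupleuri against −0.14 in Aconiti and −0.92 in Coptidis, and metallothioneins at −1.59, −1.71 and −0.070.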

How the data were processed

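RNA of HepG2 cells treated for 24 h was made into directional libraries and read as 100 bp pairs, per the labels' protocols. The deposited values are expected counts per gene, not normalized, as the authors made them with RSEM 1.3.3 and STAR 2.7.3a on GRCh38 after Trim Galore 0.6.5 and FastQC 0.11.9, per the submitters' processing notes. The annotation release and the use of strand in counting are not given in the sources used here. RSEM divides reads that fit several genes, which makes single paralogs uncertain. The table held 60675 genes in 267 columns, and 207 of the columns, which match no sample here, stayed out. Values that were not whole (8.75%) were rounded before testing. The difference between any pair of replicates was above sampling noise.

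The 56 libraries of 22 replicated groups were fitted together in edgeR 4.0.16 (R 4.3.3, TMM scaling, filterByExpr by group, robust glmQLFit and glmQLFTest), with 1 coefficient per group and 34 residual degrees of freedom. The filter kept 16661 genes and left out 44014. Groups other than those compared add to the estimate of the spread. P-values were adjusted over all tested genes within each comparison by the Benjamini-Hochberg method, and 0.05 was the threshold for a call. Levels are TMM-scaled CPM. The SE is approximate, computed as the size of the log2 fold change over the root of its F statistic. The fit was also run on counts simulated from its own spread, with nearly all genes unchanged. Many genes differed in the real data, so that run cannot show the error rate of the calls here.

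The libraries compared and all gene lists were chosen with earlier results of these data known. Genes named were the 12 largest rises and the 12 largest falls among called protein-coding genes with 5 CPM or more at one dose and no overlap of the libraries, the up to 3 largest called members of each list, CYP1A1, HMOX1, DDIT3, CDKN1A and ALB, and list members given as examples or exceptions, and EDN1, after their values were seen. Of the 12 largest rises 1, and several list members, are not reported here. Symbols were found for 41209 IDs and 1777 tested genes had none. Positions are those of GENCODE 29, and promoters those of RefSeq, of which 11323 tested genes had one. Alternatives were the left-out low-dose library added, only the libraries compared, RLE scaling, DESeq2 1.42.0, no filter, GC and length offsets, a replicate block, and each library left out.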

Additional observations from a re-analysis of the deposited data

Results flagged for a closer look

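The change between the high and the medium dose differed between Bupleuri and the other extracts by a test of the difference itself, edgeR's quasi-likelihood test on the contrast of both steps. It was called for 5719 genes against the Aconiti step and for 6499 genes against the Coptidis step.

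Among 23 genes of the largest rises and falls in Bupleuri, the difference from the Aconiti step was called for 19, where 34.3% of all tested genes were called. The genes were picked for the size of the Bupleuri step, and the same Bupleuri libraries enter the difference, so the choice favours a call. On the log2 scale the Bupleuri step exceeded the Aconiti step by 3.13 for AQP3, 3.11 for IGFBP1, 2.64 for RASD1, 2.29 for DTNA, 2.26 for TCP11L2, 2.17 for MAP1B, 2.16 for FAM47E-STBD1, 2.12 for RBM24, 2.11 for DUSP13, 1.25 for CAPN3 and 0.79 for CYP1A1. It lay below the Aconiti step with a difference of −2.50 for SCN1A, −2.12 for HEPN1, −2.09 for HEPACAM, −2.04 for CLDN19, −1.80 for KANK4, −1.56 for MAP2K6, −1.43 for DKK1 and −1.21 for SLC6A14. The 4 metallothioneins were the genes for which no difference from Aconiti was called.

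From the Coptidis step the difference was called for 16 of the 23 genes, beside 39% of all tested genes. The Bupleuri step was higher by 2.30 for CAPN3, 1.70 for DUSP13, 1.61 for SLC6A14, 1.29 for DTNA, 1.00 for IGFBP1, 0.80 for CYP1A1, 0.77 for MAP1B, 0.60 for RBM24, 0.51 for HEPACAM and 0.48 for KANK4. It was lower with a difference of −1.85 for DKK1, −1.52 for MT1X, −1.17 for MT1E, −0.92 for AQP3, −0.81 for MT1F and −0.72 for MAP2K6. SLC6A14, HEPACAM and KANK4 fell in both steps, and they fell more in the Coptidis step.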

How the results depend on the processing

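The count of genes called between the high and the medium dose (6219) was 5166 with the left-out low-dose library added, up to 7024 under the other alternatives, and 5563 to 5742 when 1 library was left out. Differences from the Aconiti step (5719) lay between 4591 and 6653, or 5250 and 5498 with 1 library left out, and from the Coptidis step (6499) between 5358 and 7130, or 5586 and 6547. The count between the medium and the low dose (68) moved most. It was 530 with the left-out library added, 184 with only the libraries compared, 109 by DESeq2, 171 without the filter, 204 with GC and length offsets, 130 with the replicate block, 287 with both, and 3 to 42 with 1 library left out. The 105 genes checked were those of the largest rises and falls, the up to 3 largest called members of each list, and CYP1A1, HMOX1, DDIT3, CDKN1A and ALB. Of these, 93 kept direction and call between the high and the medium dose under every alternative, and 12 lost the call under at least 1. Other genes, given as examples or exceptions or in the families below, were not checked one by one in this way. The 12 were AHRR, CYP7A1, DDIT3, HSPA1B, MT-CO3, NDUFB10, NDUFV2, SMPDL3A and SOCS3, and, with the length-dependent library added only, ABCA1, HSP90AA1 and NDUFS3 (edgeR adjusted p = 0.0600, 0.0631 and 0.135). None of the 105 genes reversed, and the cause of the lost calls was not tested. Same-numbered high- and medium-dose libraries deviated together only weakly (r = 0.0370, 0.0238 and 0.0306 over 13183 genes, none over 0.1), so the numbers are not taken to pair them, although each library correlated best with its own number. With the replicate block 6484 genes were called between these doses. Depth limits genes below 1 CPM.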

Other observations

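Gene families named after their values were seen are given here as counts by edgeR's quasi-likelihood test over all tested genes, beside the 19.2% called higher and 18.1% called lower among all genes. As for the lists, these shares are too low a background for families of well-expressed genes. Of 37 proteasome subunits 22 were higher at the high dose and 3 lower, with a median log2 fold change of 0.14, and under the alternatives 16 to 27 were higher. Among the 3 lower ones were PSMB9 (−0.91 ± 0.15, 2.84, 2.40 and 3.17 CPM at the high dose against 5.50, 4.58 and 5.72 CPM at the medium dose) and PSMB8 (−0.20 ± 0.077, edgeR adjusted p = 0.0314), which belong to the immunoproteasome. PSMB10, which belongs to it as well, was not called (−0.011 ± 0.098, edgeR adjusted p = 0.951). It had 15.3, 18.1 and 19.4 CPM at the high dose against 17.4, 17.3 and 18.4 CPM at the medium dose. Of 20 V-ATPase subunits, the pump that acidifies lysosomes, 12 were higher and 1 lower. ATP6V0A1 had 85.2, 86.5 and 84.0 CPM at the high dose and 57.4, 61.5 and 60.1 CPM at the medium dose. Among 18 cytosolic tRNA synthetases 9 were higher and 1 lower, with GARS1 at 181, 184 and 180.3 CPM at the high dose and 144, 134 and 135 CPM at the medium dose (0.40 ± 0.033). Mitochondrial tRNA synthetases had 0 of 17 higher and 7 lower, among them RARS2 (−0.28 ± 0.055). Of 78 mitochondrial ribosomal proteins 26 were lower and 4 higher, but 17 were lower without medium-dose replicate 3, 16 without the filter and 11 with the left-out low-dose library added.

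Some families split. Of 15 claudins 4 were higher, among them CLDN6 (27.5, 26.2 and 24.3 CPM at the high dose against 8.56, 9.86 and 10.1 CPM at the medium dose) and CLDN4 (139.6, 149 and 147 CPM at the high dose against 65.3, 66.4 and 65.6 CPM at the medium dose), and 3 were lower, CLDN19 among them. Of 34 kinesins 9 were higher and 14 lower. KIF3C, a transport kinesin, had 49.1, 46.1 and 44.2 CPM at the high dose and 19.5, 19.5 and 20.2 CPM at the medium dose (1.24 ± 0.055), while the mitotic KIF15 fell by 0.77 on the log2 scale. Of 12 Kruppel-like factors 8 were higher and 1 lower, KLF15 (−0.60 ± 0.099). Of 19 dual-specificity phosphatases 11 were higher, DUSP8 by 1.84 ± 0.098, and 3 were lower, DUSP7, DUSP9 and DUSP19. Of 17 integrins 6 were higher and 2 lower. Among the higher ones ITGA2, an integrin subunit for collagen, had 255, 254 and 221 CPM at the high dose against 93.0, 95.6 and 85.9 CPM at the medium dose (1.41 ± 0.062).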
